A study of Mus musculus with 9 samples.

Results

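The 10 genes described here encode Polycomb proteins and histone demethylases that act against them. They were measured in mouse bone marrow cells transduced with NUP98-NSD1, with NRASG12D or with both. According to the study, NRASG12D alone did not transform these cells. They are Ezh1, Ezh2, Eed and Suz12 of Polycomb repressive complex 2 (PRC2), its cofactor Jarid2, Bmi1, Ring1 and Rnf2 of Polycomb repressive complex 1 (PRC1), and the histone demethylases Kdm6a and Kdm6b. They were chosen by gene symbol and make up 10 of the 55274 gene identifiers measured. All 10 had at least 1 FPKM (fragments assigned to a gene, per length of its transcript and size of the library) in at least 3 of the 9 libraries and so were among the 13493 genes tested.

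Polycomb proteins keep developmental genes silent. PRC2 methylates lysine 27 of histone H3 (H3K27) through EZH1 or EZH2, which need EED and SUZ12 to work, and PRC1 ubiquitinates histone H2A through RING1 or RNF2. KDM6A and KDM6B remove the methyl groups from H3K27. Methylation of lysine 36 of histone H3 (H3K36), the mark written by NSD1, hinders PRC2 on the same histone tail, and the Hox genes that NUP98-NSD1 switches on in blood cells are classical Polycomb targets.

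The 9 libraries formed 3 groups of 3. Bone marrow came from female C57BL/6J mice of 6 to 8 weeks that had received 150 mg/kg of 5-fluorouracil, an agent that kills dividing cells, 4 days before harvest. All cells were stimulated for 48 h with human IL-6, murine IL-3 and murine SCF and then transduced with retroviral vectors. The NRASG12D group carried an active RAS protein with a blue fluorescent reporter, the NUP98-NSD1 group carried the fusion of a nuclear pore protein to the H3K36 methyltransferase NSD1 with a green fluorescent reporter, and the NUP98-NSD1+NRASG12D group carried both. Cells were sorted by these reporters and expanded in culture, and no library of untransduced cells was part of the comparison. The sources used here do not say whether the libraries of a group came from separate mice or cultures, so p-values measure the spread between these libraries, which may be technical.

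The libraries held an estimated 22500000 to 35350000 fragments. Nras, a check of the labels, stood at 354, 479 and 348 FPKM in the NRASG12D libraries and at 245, 262 and 701 FPKM with both oncogenes, against 50.3, 47.7 and 51.2 FPKM with NUP98-NSD1 alone. Nup98, part of the fusion, was at 9.12, 11.1 and 10.9 FPKM in NRASG12D and at 18.6, 18.2 and 19.0 FPKM in NUP98-NSD1 libraries. With both oncogenes it was at 11.9, 15.6 and 20.2 FPKM and was not called against NRASG12D, so Nup98 is a weaker check. Nsd1, the other part of the fusion, overlapped between all groups (9.98 to 16.2 FPKM over the 9 libraries) and does not check the labels. The study describes the NRASG12D cells as mainly mast cells, and 9 mast cell markers summed to between 30001 and 32606 FPKM in NRASG12D, between 26824 and 31835 FPKM in NUP98-NSD1 and between 738 and 4324 FPKM in NUP98-NSD1+NRASG12D libraries. Cpa3, a mast cell protease, was listed at 0 in all 3 NRASG12D libraries, and without it the sums were 13665 to 17456 FPKM with NUP98-NSD1 and 459 to 2503 FPKM with both oncogenes, each below all NRASG12D libraries. Of the 9 markers, Kit, Ms4a2, Cma1 and Tpsb2 fell and Mcpt4 and Hdc rose in NUP98-NSD1 against NRASG12D cells. Cpa3 was called higher too, but it passed the filter on low FPKM only through the groups with the fusion. Its call is therefore not used. Markers of granulocyte and monocyte precursors (6 genes) summed to between 26.9 and 31.5 FPKM in NRASG12D, between 1467 and 5870 FPKM in NUP98-NSD1 and between 5100 and 13932 FPKM in NUP98-NSD1+NRASG12D libraries. Markers of B and T cells stayed below 0.16 FPKM in sum. Cell type markers thus moved with the oncogenes and their parts cannot be told apart in bulk RNA, nor can fewer cells of a type and less RNA per cell.

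Differences were tested with limma on log2(FPKM + 1), each pair of groups over its own 6 libraries, with p-values adjusted over all tested genes and called under 0.05. On this scale the fold change of a gene with few FPKM comes out too small. The median of all tested genes was itself higher by 0.27 (log2) in NUP98-NSD1 and by 0.23 (log2) in NUP98-NSD1+NRASG12D than in NRASG12D cells, and it differed by -0.06 (log2) between the groups with the fusion. A second value is therefore given where it differs in its call, after median-ratio scaling, which divides each library by its median ratio to the average library and brings these medians to 0.01, 0.06 and 0.04 (log2). Any pair of these comparisons shares the 3 libraries of 1 group.

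In NUP98-NSD1 cells 5 of the 10 genes rose against NRASG12D cells (Ezh2, Eed, Suz12, Jarid2 and Rnf2) and 1 fell (Ezh1), where 42.2% of all tested genes rose and 9.98% fell. After median-ratio scaling 2 rose (Ezh2 and Eed) and 3 fell (Ezh1, Kdm6a and Kdm6b), where 23.9% of all tested genes rose and 21.9% fell. Ezh2, Eed and Ezh1 were thus called on both scales. Without NUP98-NSD1 replicate 1 or 2 the count of 6 as deposited fell to 3. For 8 of the 10 genes the 2 groups were separate in FPKM, 5 higher and 3 lower (Ezh1, Kdm6a and Kdm6b), where 50.7% of tested genes were higher and 13.5% lower without overlap. The median difference of the 10 genes was 0.32 (log2), against 0.27 for all tested genes.

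In NUP98-NSD1+NRASG12D cells 2 of the 10 genes rose against NRASG12D cells (Suz12 and Jarid2) and 2 fell (Ezh1 and Kdm6a), where 24.2% of all tested genes rose and 14.1% fell. The same 4 genes were called after median-ratio scaling, where 20.6% of all tested genes rose and 18.2% fell. The 2 groups were separate for 8 genes, 4 higher (Eed, Suz12, Jarid2 and Rnf2) and 4 lower (Ezh1, Bmi1, Kdm6a and Kdm6b), against 38.7% of tested genes higher and 19.9% lower without overlap. The median difference of the 10 genes was 0.01 (log2), against 0.23 for all tested genes.

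Between the groups that carry the fusion, Kdm6a alone was called and fell when NRASG12D was present, where 2.3% of all tested genes rose and 6.31% fell. No gene of the 10 was called by limma after median-ratio scaling, where 2.31% of all tested genes rose and 4.69% fell, and at an unadjusted p under 0.05 there was 1 higher (Jarid2) and 1 lower (Kdm6a). Without NUP98-NSD1 replicate 1, 2 or 3 or NUP98-NSD1+NRASG12D replicate 3 the count as deposited was 0, and without NUP98-NSD1+NRASG12D replicate 1 it was 2. Jarid2 was higher and Ezh1, Bmi1, Ring1 and Kdm6a were lower without overlap, against 11.6% of tested genes higher and 19.8% lower. Over all 9 libraries, Jarid2 increased from NRASG12D over NUP98-NSD1 to NUP98-NSD1+NRASG12D with no overlap between any groups, an order held by 8.38% of tested genes. Ezh1 and Kdm6a decreased in the same order with no overlap, as did 6.84% of tested genes.

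**Figure D1:**
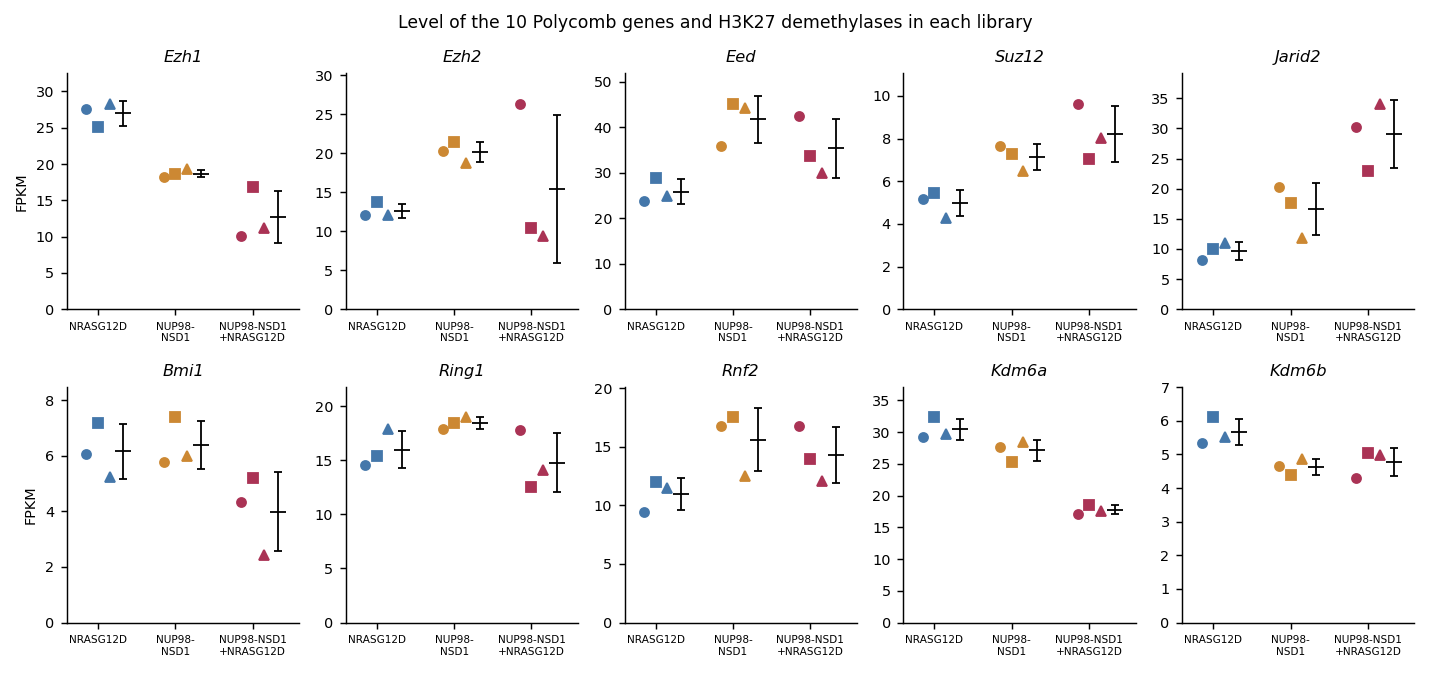
FPKM of the 10 genes in each library (vertical axes start at 0), with circles, squares and triangles for replicates 1, 2 and 3, and black bars for the group mean ± SD (n = 3). Ezh1, Kdm6a and Jarid2 form 3 separate steps, and replicate 1 of NUP98-NSD1+NRASG12D stands apart from its group for Ezh2.

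**Figure D2:**
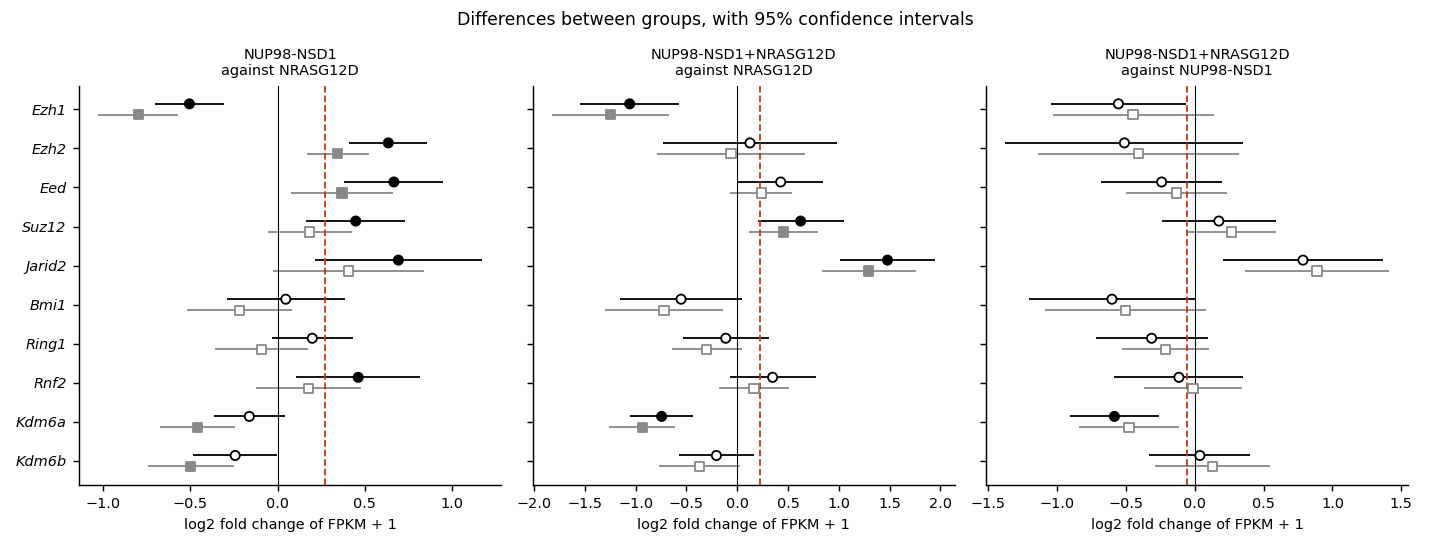
Log2 fold change of FPKM + 1 for each gene and pair of groups, with 95% confidence intervals, from FPKM as deposited (black circles) and after median-ratio scaling (grey squares), filled where the adjusted p is under 0.05. The dashed line is the median of all tested genes on the deposited scale, at 0.27, 0.23 and -0.06 from left to right.

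Levels per length also ordered the genes within a group. In NRASG12D cells Kdm6a was highest (30.5 ± 1.65 FPKM, SD, n = 3), followed by Ezh1 and Eed, which overlapped, and Suz12 was lowest, overlapping with Kdm6b. In NUP98-NSD1 cells Eed was highest (41.7 ± 5.09 FPKM), and Ezh2, Ezh1, Ring1, Jarid2 and Rnf2 each overlapped with the next in that order. Eed and Jarid2 stood highest in NUP98-NSD1+NRASG12D cells and overlapped with each other, and Bmi1 was lowest, overlapping with Kdm6b. The spread between replicates was largest in that group, with a coefficient of variation of 4.07% (Kdm6a) to 61.5% (Ezh2), against 5.42% to 16.0% in NRASG12D and 2.78% to 26.2% in NUP98-NSD1 cells.

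Among the core subunits of PRC2, the alternative catalytic subunits Ezh1 and Ezh2 changed in opposite directions between NUP98-NSD1 and NRASG12D cells. Ezh2 is the form known from dividing cells and Ezh1 the form known from resting and differentiated cells. Their promoters are shown with that of Suz12, since Ezh2 and Suz12 alone held an exact match to the E2F motifs searched for here. This holds among the 9 genes with a RefSeq promoter entry. E2F factors drive genes of the cell cycle. The sequences run 5′ to 3′ from 250 bases before to 50 bases after the gene's start (RefSeq, build GRCm38.p6), and capitals mark the motif.
Ezh1 promoter, chr11:101226414-101226713, minus strand: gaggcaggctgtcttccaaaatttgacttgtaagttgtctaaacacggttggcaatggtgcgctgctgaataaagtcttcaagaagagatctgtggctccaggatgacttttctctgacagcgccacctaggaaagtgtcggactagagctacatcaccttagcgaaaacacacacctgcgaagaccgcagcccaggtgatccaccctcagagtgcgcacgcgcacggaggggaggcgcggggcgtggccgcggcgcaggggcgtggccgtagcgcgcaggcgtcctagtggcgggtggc
Ezh2 promoter, chr6:47594981-47595280, minus strand: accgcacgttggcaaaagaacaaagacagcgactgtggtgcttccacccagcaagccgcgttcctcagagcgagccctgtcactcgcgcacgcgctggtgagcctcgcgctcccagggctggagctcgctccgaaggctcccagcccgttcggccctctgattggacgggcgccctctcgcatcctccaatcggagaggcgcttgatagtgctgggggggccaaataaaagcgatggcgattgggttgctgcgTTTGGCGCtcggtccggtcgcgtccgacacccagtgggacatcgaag
Suz12 promoter, chr11:79992856-79993155, plus strand: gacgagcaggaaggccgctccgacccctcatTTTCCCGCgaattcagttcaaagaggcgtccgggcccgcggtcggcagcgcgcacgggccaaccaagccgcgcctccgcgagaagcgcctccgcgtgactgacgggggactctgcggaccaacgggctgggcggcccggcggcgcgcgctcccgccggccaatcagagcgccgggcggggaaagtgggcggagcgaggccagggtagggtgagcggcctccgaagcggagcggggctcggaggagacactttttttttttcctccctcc
Searched on both strands were TTTCCCGC, TTTCGCGC, TTTGCCGC and TTTGGCGC, of which at least 1 occurred in 2.26% of the 32851 promoters of this length. The match of Ezh2 begins 3 bases after the start and that of Suz12 begins 219 bases before it. No match was found in the promoters of Ezh1, Eed, Jarid2, Bmi1, Ring1, Rnf2 or Kdm6a, and Kdm6b had no entry. The promoters of the 9 genes held between 17 and 41 CpG dinucleotides, against a median of 7 over all promoters. Each searched motif holds a CpG itself, so the share over all promoters is not a matched background for these genes.

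Ezh1 (ENSMUSG00000006920.14, chromosome 11, 101191115 to 101226463) was at 27.5, 25.1 and 28.3 FPKM in NRASG12D, at 18.2, 18.6 and 19.2 FPKM in NUP98-NSD1 and at 10.1, 16.8 and 11.2 FPKM in NUP98-NSD1+NRASG12D cells. Each group lay wholly below the one before it, with replicate 2 of NUP98-NSD1+NRASG12D closest to the NUP98-NSD1 libraries. Ezh1 fell in NUP98-NSD1 (log2 fold change -0.51, SE 0.08, adjusted p = 0.00329) and in NUP98-NSD1+NRASG12D cells (-1.06, SE 0.21, adjusted p = 0.00759) against NRASG12D cells. Both calls held after median-ratio scaling, with log2 fold changes of -0.80 and -1.25. With all 9 libraries in 1 fit the first was lost (adjusted p = 0.0636). Between the groups with the fusion the log2 difference of -0.55 (95% confidence interval -1.05 to -0.06) was not called (adjusted p = 0.157). It was called in 1 of the 6 alternative fits with all libraries kept (adjusted p = 0.0286). It was also called without replicate 2 of NUP98-NSD1+NRASG12D (-0.76, adjusted p = 0.0384). That library also had the highest sum of mast cell markers in its group, 4324 FPKM against 968 and 738 FPKM, and the part of these cells in the level of Ezh1 was not tested.

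Ezh2 (ENSMUSG00000029687.16, chromosome 6, 47530139 to 47595341) was at 12.0, 13.7 and 12.1 FPKM in NRASG12D, at 20.3, 21.4 and 18.8 FPKM in NUP98-NSD1 and at 26.3, 10.5 and 9.40 FPKM in NUP98-NSD1+NRASG12D cells. All NUP98-NSD1 libraries were above all NRASG12D libraries, whereas the NUP98-NSD1+NRASG12D group held both the highest and the lowest values of the 9. Ezh2 rose in NUP98-NSD1 against NRASG12D cells by 0.64 (log2, SE 0.10, adjusted p = 0.00244), and by 0.35 after median-ratio scaling (adjusted p = 0.0104). With all 9 libraries in 1 fit, which takes in the wide spread of NUP98-NSD1+NRASG12D, this call was lost (adjusted p = 0.156). The other comparisons gave log2 differences of 0.13 (NUP98-NSD1+NRASG12D against NRASG12D, adjusted p = 0.802) and -0.51 (against NUP98-NSD1, adjusted p = 0.474). Replicate 1 of NUP98-NSD1+NRASG12D decided both values. Without it the differences were -0.32 (adjusted p = 0.0947) and -0.95 (adjusted p = 0.0125), so that Ezh2 was then called lower than in NUP98-NSD1 cells. With all libraries kept, 1 of the 6 alternative fits also called Ezh2 lower than in NUP98-NSD1 cells.

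The ratio of Ezh2 to Ezh1 within a library does not depend on how that library was scaled. Ezh2 made up 30.4%, 35.3% and 29.96% of the summed FPKM of both genes in NRASG12D, 52.6%, 53.5% and 49.4% in NUP98-NSD1, and 72.3%, 38.4% and 45.7% in NUP98-NSD1+NRASG12D cells. Every library with the fusion held a larger share of Ezh2 than every library without it. The log2 ratio of Ezh2 to Ezh1 was 1.20 higher in NUP98-NSD1 than in NRASG12D cells (0.11 ± 0.13 against -1.10 ± 0.19, SD, n = 3 each, 2-sided exact permutation p = 0.1, the smallest that 3 libraries against 3 can give). For NUP98-NSD1+NRASG12D the ratio was 0.15 ± 1.09 (SD, n = 3), 1.25 higher than in NRASG12D cells (exact permutation p = 0.1) and 0.04 higher than in NUP98-NSD1 cells (exact permutation p = 1.0). Without replicate 1 of NUP98-NSD1+NRASG12D the difference from NRASG12D was 0.63 rather than 1.25. The difference between the groups with the fusion turned to -0.57 without replicate 1 of NUP98-NSD1+NRASG12D and to -0.03 without replicate 3 of NUP98-NSD1. The sum of both genes was 39.6 ± 0.784 FPKM in NRASG12D and 38.8 ± 1.00 FPKM in NUP98-NSD1 cells, which overlapped, and 28.1 ± 7.95 FPKM in NUP98-NSD1+NRASG12D cells (SD, n = 3). After median-ratio scaling the sums were 43.7 ± 2.12, 34.7 ± 1.32 and 26.7 ± 5.22 in the same order, and no groups overlapped.

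**Figure D3:**
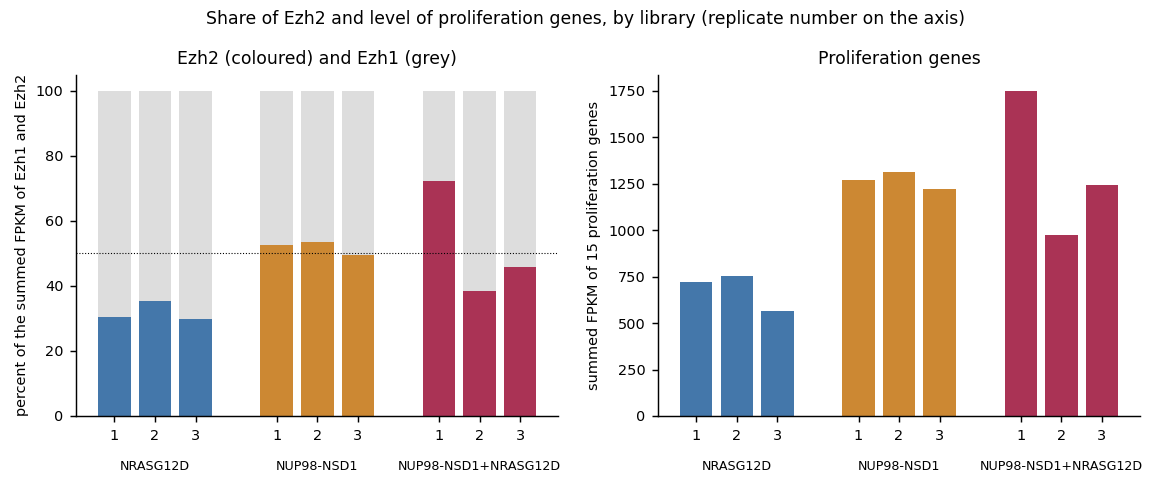
Left, the percent of the summed FPKM of Ezh1 and Ezh2 that was Ezh2 (coloured) or Ezh1 (grey) in each library, with a dotted line at 50%. Right, the summed FPKM of 15 proliferation genes in the same libraries, lowest in the NRASG12D libraries (562 to 755) and highest in replicate 1 of NUP98-NSD1+NRASG12D (1750).

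Genes of DNA replication and mitosis were also lowest in the NRASG12D libraries. The 15 proliferation genes had sums of 723, 755 and 562 FPKM in NRASG12D, 1272, 1314 and 1220 FPKM in NUP98-NSD1 and 1750, 972 and 1243 FPKM in NUP98-NSD1+NRASG12D cells. The library with the highest sum was also the one with the highest Ezh2, and all NRASG12D libraries were below the rest. Replicates 2 and 3 of NUP98-NSD1+NRASG12D went the other way, with sums above every NRASG12D library and Ezh2 below every one of them (10.5 and 9.40 FPKM). Of the 15 genes, 14 rose in NUP98-NSD1 (13 after median-ratio scaling) and 10 in NUP98-NSD1+NRASG12D against NRASG12D cells, and none was called by limma between the groups with the fusion (0 at an unadjusted p under 0.05 as deposited, 2 higher after median-ratio scaling). Of all tested genes, 42.2% rose in NUP98-NSD1 against NRASG12D cells (23.9% after that scaling). In NUP98-NSD1+NRASG12D against NRASG12D cells 24.2% of all tested genes rose. Mcm5, a subunit of the replicative helicase, rose by 1.30 (log2, SE 0.12, adjusted p = 5.31e-04) in NUP98-NSD1 and by 1.29 (SE 0.30, adjusted p = 0.0152, but 0.0643 without NRASG12D replicate 3) with both oncogenes. The part of proliferation in the levels of Ezh2 was not tested.

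Eed, the subunit that binds methylated H3K27, was at 23.8, 28.9 and 24.9 FPKM in NRASG12D, at 35.9, 45.1 and 44.2 FPKM in NUP98-NSD1 and at 42.6, 33.7 and 29.9 FPKM in NUP98-NSD1+NRASG12D cells. Both groups with the fusion were wholly above NRASG12D. Eed (ENSMUSG00000030619.9, chromosome 7, 89954654 to 89980983) rose in NUP98-NSD1 cells by 0.67 (log2, SE 0.12, adjusted p = 0.00452) and by 0.37 after median-ratio scaling (adjusted p = 0.0459). With both oncogenes the log2 difference from NRASG12D of 0.43 (95% confidence interval 0.01 to 0.85) was not called (adjusted p = 0.0959). Eed overlaps with E230029C05Rik on the other strand, which shares 5.42% of its stretches of 50 bases.

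Suz12, which holds PRC2 together, had the lowest level of the PRC2 core, at 5.16, 5.46 and 4.29 FPKM in NRASG12D, 7.64, 7.29 and 6.48 FPKM in NUP98-NSD1 and 9.62, 7.03 and 8.03 FPKM in NUP98-NSD1+NRASG12D cells. The groups with the fusion overlapped with each other and lay above NRASG12D. Suz12 (ENSMUSG00000017548.15, chromosome 11, 79993106 to 80034123) rose by 0.45 (log2, SE 0.12, adjusted p = 0.0186) in NUP98-NSD1 and by 0.62 (SE 0.18, adjusted p = 0.0322) with both oncogenes. The first call was lost after median-ratio scaling (0.19, adjusted p = 0.172) and without NRASG12D replicate 3 or NUP98-NSD1 replicate 1 or 2 (adjusted p = 0.0565, 0.0690 and 0.0659). The second held after that scaling (0.45, adjusted p = 0.0443) but not without NRASG12D replicate 1, 2 or 3 or NUP98-NSD1+NRASG12D replicate 3 (adjusted p = 0.0963, 0.0799, 0.136 and 0.0630).

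Jarid2, a cofactor that recruits PRC2 to chromatin, showed the largest difference of the 10 genes. It was at 8.13, 9.99 and 11.1 FPKM in NRASG12D, at 20.3, 17.7 and 11.8 FPKM in NUP98-NSD1 and at 30.2, 22.9 and 34.0 FPKM in NUP98-NSD1+NRASG12D cells. Each group lay above the one before it, with replicate 3 of NUP98-NSD1 close to the NRASG12D libraries. Jarid2 (ENSMUSG00000038518.15, chromosome 13, 44729474 to 44921643) rose by 1.48 (log2, SE 0.20, adjusted p = 0.00164) in NUP98-NSD1+NRASG12D against NRASG12D cells, also after median-ratio scaling (1.30, adjusted p = 0.00298) and without any single library (adjusted p at most 0.0104). In NUP98-NSD1 cells it rose by 0.69 (SE 0.20, adjusted p = 0.0253), but this call was lost after median-ratio scaling (0.41, adjusted p = 0.108) and without NRASG12D replicate 1 or 2 or NUP98-NSD1 replicate 1 or 2 (adjusted p = 0.0788, 0.0532, 0.0808 and 0.0855). Between the groups with the fusion the log2 difference of 0.79 (95% confidence interval 0.20 to 1.37) was not called (adjusted p = 0.101). This difference was called in 2 of the 6 alternative fits with all libraries kept (lowest adjusted p = 0.0429). In the groups with the fusion, the order of Jarid2 followed neither the precursor nor the neutrophil markers throughout. Replicate 3 of NUP98-NSD1, lowest in its group for Jarid2, was lowest for granulocyte and monocyte precursor markers (1467 FPKM against 5870 and 5793 FPKM) but not for neutrophil markers (445 FPKM against 645 and 400.5 FPKM). Replicate 3 of NUP98-NSD1+NRASG12D, highest for Jarid2, was highest for neutrophil markers (13296 FPKM against 2027 and 3519 FPKM) but not for precursor markers (7804 FPKM against 13932 and 5100 FPKM). In both groups with the fusion, mast cell markers without Cpa3 ran in the opposite order to Jarid2. Over replicates 1, 2 and 3 they summed to 13665, 14260 and 17456 FPKM in NUP98-NSD1 libraries. With both oncogenes the sums were 615, 2503 and 459 FPKM. The order was not opposite in NRASG12D libraries (30001, 32606 and 31136 FPKM). With Cpa3 it was not fully opposite in NUP98-NSD1 libraries (27078, 26824 and 31835 FPKM). The part of these cell types in the level of Jarid2 was not tested.

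Of the 3 genes of PRC1, only Rnf2 was called on FPKM as deposited, in NUP98-NSD1 against NRASG12D cells. Bmi1 (ENSMUSG00000026739.13, chromosome 2, 18677018 to 18686629), a subunit of the canonical complex known for the self-renewal of blood stem cells, was at 6.07, 7.19 and 5.22 FPKM in NRASG12D, at 5.78, 7.38 and 5.98 FPKM in NUP98-NSD1 and at 4.34, 5.197 and 2.44 FPKM in NUP98-NSD1+NRASG12D cells. The first groups overlapped, and the last lay below both. No difference of Bmi1 was called, with log2 fold changes of 0.05 in NUP98-NSD1 (95% confidence interval -0.29 to 0.38, adjusted p = 0.798) and -0.55 in NUP98-NSD1+NRASG12D (-1.16 to 0.05, adjusted p = 0.125) against NRASG12D, and of -0.60 between the groups with the fusion (adjusted p = 0.203). The value of 0.05 turned to -0.22 after median-ratio scaling. With both oncogenes Bmi1 was called lower in 1 of the 6 alternative fits with all libraries kept (adjusted p = 0.0236 against NRASG12D). Against NUP98-NSD1 cells 1 of these fits called it lower as well (adjusted p = 0.0309). Bmi1 shares 16.6% of its stretches of 50 bases with the processed pseudogene Gm5946, so its level is less certain than that of the other 9 genes.

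Ring1 and Rnf2 encode the alternative ubiquitin ligases of PRC1. Ring1 (ENSMUSG00000024325.8, chromosome 17, 34020792 to 34024680) was at 14.6, 15.5 and 17.9 FPKM in NRASG12D, at 17.9, 18.5 and 19.0 FPKM in NUP98-NSD1 and at 17.8, 12.5 and 14.1 FPKM in NUP98-NSD1+NRASG12D cells. Its groups lay close together and no difference was called, with a log2 fold change of 0.20 in NUP98-NSD1 against NRASG12D (adjusted p = 0.129) that turned to -0.09 after median-ratio scaling. In that comparison 1 of the 6 alternative fits with all libraries kept called Ring1 higher (adjusted p = 0.0457). Rnf2 (ENSMUSG00000026484.13, chromosome 1, 151458004 to 151500955) was at 9.46, 12.0 and 11.5 FPKM in NRASG12D, at 16.7, 17.5 and 12.5 FPKM in NUP98-NSD1 and at 16.8, 13.96 and 12.1 FPKM in NUP98-NSD1+NRASG12D cells. Both groups with the fusion lay above NRASG12D, the nearest libraries by a small margin. Rnf2 rose in NUP98-NSD1 cells by 0.46 (log2, SE 0.15, adjusted p = 0.0367), a call that was lost after median-ratio scaling (0.18, adjusted p = 0.287) and without NRASG12D replicate 1 or 3 or NUP98-NSD1 replicate 1 or 2 (adjusted p = 0.112, 0.0738, 0.115 and 0.125). The log2 ratio of Rnf2 to Ring1 was -0.54 ± 0.16 in NRASG12D, -0.26 ± 0.30 in NUP98-NSD1 and -0.05 ± 0.19 in NUP98-NSD1+NRASG12D cells (SD, n = 3). Only the first and the last of these did not overlap (2-sided exact permutation p = 0.1), the other p-values being 0.2 and 0.5.

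Kdm6a, the X-linked H3K27 demethylase, varied least of the 10 genes between the replicates of NRASG12D and of NUP98-NSD1+NRASG12D. It was at 29.3, 32.3 and 29.8 FPKM in NRASG12D, at 27.6, 25.3 and 28.5 FPKM in NUP98-NSD1 and at 17.1, 18.5 and 17.6 FPKM in NUP98-NSD1+NRASG12D cells. The NUP98-NSD1 libraries lay just below NRASG12D, and the NUP98-NSD1+NRASG12D libraries far below both. Kdm6a (ENSMUSG00000037369.17, chromosome X, 18162575 to 18279936) fell in NUP98-NSD1+NRASG12D against NRASG12D cells (log2 fold change -0.74, SE 0.13, adjusted p = 0.00504), after median-ratio scaling (-0.94, adjusted p = 0.00276) and without any single library (adjusted p at most 0.0373). Against NUP98-NSD1 cells it fell by 0.58 on the log2 scale (SE 0.14, adjusted p = 0.0476). That call did not hold after median-ratio scaling (-0.48, adjusted p = 0.112), nor without NUP98-NSD1 replicate 1, 2 or 3 (adjusted p = 0.174, 0.164 and 0.186) or NUP98-NSD1+NRASG12D replicate 2 or 3 (adjusted p = 0.0599 and 0.113). In NUP98-NSD1 against NRASG12D cells the log2 difference of -0.16 was not called (adjusted p = 0.15), whereas after median-ratio scaling Kdm6a was called lower (-0.46, adjusted p = 0.00784).

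Kdm6b, the inducible H3K27 demethylase, was at 5.35, 6.10 and 5.53 FPKM in NRASG12D, at 4.64, 4.37 and 4.86 FPKM in NUP98-NSD1 and at 4.30, 5.05 and 4.99 FPKM in NUP98-NSD1+NRASG12D cells. All NRASG12D libraries were above the rest by a small margin. Kdm6b (ENSMUSG00000018476.7, chromosome 11, 69398508 to 69413675) was not called, with -0.24 in NUP98-NSD1 (log2, adjusted p = 0.0836) and -0.21 in NUP98-NSD1+NRASG12D against NRASG12D (adjusted p = 0.319), but was called lower in NUP98-NSD1 cells after median-ratio scaling (-0.50, adjusted p = 0.00919). Within a library Kdm6b made up between 15.5% and 15.9% of the summed FPKM of both demethylases in NRASG12D, between 14.4% and 14.7% in NUP98-NSD1 and between 20.1% and 22.04% in NUP98-NSD1+NRASG12D cells. These shares did not overlap between any groups. The log2 ratio of Kdm6b to Kdm6a was 0.53 higher in NUP98-NSD1+NRASG12D than in NRASG12D and 0.65 higher than in NUP98-NSD1 cells, and it differed by -0.12 between NUP98-NSD1 and NRASG12D cells (2-sided exact permutation p = 0.1 for each, the smallest possible).

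The remaining Polycomb genes were taken from a list of 45 genes of PRC2, PRC1 and the PR-DUB complex, which removes ubiquitin from histone H2A, of which 41 were tested. In NUP98-NSD1 against NRASG12D cells 13 rose and 5 fell, where 42.2% of all tested genes rose and 9.98% fell, and after median-ratio scaling 10 rose and 8 fell, where 23.9% of all tested genes rose and 21.9% fell. Their median difference was 0.16 (log2) against 0.27 for all tested genes, and -0.07 against 0.01 after that scaling. The largest rises were those of Epop (1.148, SE 0.27, adjusted p = 0.0110), a PRC2 accessory protein, Rbbp7 (1.10, SE 0.13, adjusted p = 0.00128), a histone-binding subunit, and Pcgf5 (1.01, SE 0.17, adjusted p = 0.00356), a subunit of variant PRC1. The largest falls were those of Phf1 (-0.82, SE 0.11, adjusted p = 0.00193), which recruits PRC2 to chromatin, Ogt (-0.59, SE 0.07, adjusted p = 0.00139), a glycosyltransferase, and Sfmbt1 (-0.50, SE 0.15, adjusted p = 0.0306), a reader protein. All 6 were also called after median-ratio scaling. Rbbp7, Pcgf5, Phf1, Ogt and Epop were called without any single library, whereas Sfmbt1 was not called without NRASG12D replicate 1, 2 or 3 or NUP98-NSD1 replicate 1 or 2 (adjusted p from 0.0515 to 0.0985). In the 6 alternative fits with all libraries kept, Rbbp7, Pcgf5 and Phf1 were always called. Ogt was called in 5 of these (highest adjusted p = 0.171), and Epop and Sfmbt1 in 4 (highest adjusted p = 0.114 and 0.147).

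In NUP98-NSD1+NRASG12D against NRASG12D cells 7 of the 41 rose and 6 fell, where 24.2% of all tested genes rose and 14.1% fell. After median-ratio scaling 6 rose and 7 fell, where 20.6% of all tested genes rose and 18.2% fell. The 41 genes had a median of 0.07 (log2) against 0.23 for all tested genes, and of -0.09 against 0.06 after that scaling. Pcgf5 (1.17, SE 0.33, adjusted p = 0.0319), Rbbp7 (1.10, SE 0.30, adjusted p = 0.0268) and Mtf2 (0.85, SE 0.27, adjusted p = 0.0431), a PRC2 recruiting protein related to Phf1, rose most. Auts2 (-2.25, SE 0.73, adjusted p = 0.0477), Phf1 (-1.66, SE 0.29, adjusted p = 0.00474) and Ogt (-1.14, SE 0.35, adjusted p = 0.0416) fell most. Of these 6 only Phf1 was called without any single library. These counts rested on the full set of NRASG12D libraries, since without replicate 1, 2 or 3 of that group 2, 4 and 2 of the 41 genes were called. Between the groups with the fusion none of the 41 rose and 3 fell, where 2.3% of all tested genes rose and 6.31% fell (at an unadjusted p under 0.05 by limma, 1 higher and 6 lower), and the 3 were Auts2 (-3.08, adjusted p = 0.00566), Phc1 (-1.10, adjusted p = 0.0350) and Bcor (-0.80, adjusted p = 0.0316), all of PRC1. The call of Auts2 is not used, as explained below, which leaves Phc1 and Bcor. The count of 3, with Auts2 included, was 1 without NUP98-NSD1 replicate 1, 2 or 3 or NUP98-NSD1+NRASG12D replicate 3 and 7 without NUP98-NSD1+NRASG12D replicate 1. Phc1 and Bcor were not called in those runs with a count of 1 (adjusted p from 0.0660 to 0.157). Bcor was also not called without NUP98-NSD1+NRASG12D replicate 2 (adjusted p = 0.0576).

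Auts2 was at 13.1, 0.613 and 6.27 FPKM in NRASG12D, at 7.43, 6.51 and 13.8 FPKM in NUP98-NSD1 and at 0.0332, 0.502 and 0 FPKM in NUP98-NSD1+NRASG12D cells. The libraries of the last group lay below all others, and the call against the widely spread NRASG12D libraries was lost after median-ratio scaling (adjusted p = 0.0507). Auts2 stayed below 1 FPKM in every library of that last group and in replicate 2 of NRASG12D. It passed the filter on low FPKM only with the NUP98-NSD1 libraries counted, where it is high. Its call against NUP98-NSD1 is therefore not used. Phc1, a polyhomeotic subunit, was at 2.24, 1.80 and 2.64 FPKM in NRASG12D, at 2.44, 3.12 and 2.25 FPKM in NUP98-NSD1 and at 0.968, 0.921 and 0.229 FPKM in NUP98-NSD1+NRASG12D cells. Bcor, of variant PRC1, was likewise similar in the first groups and lower in every library of the last (7.62, 6.49 and 5.77 FPKM).

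**Figure D4:**
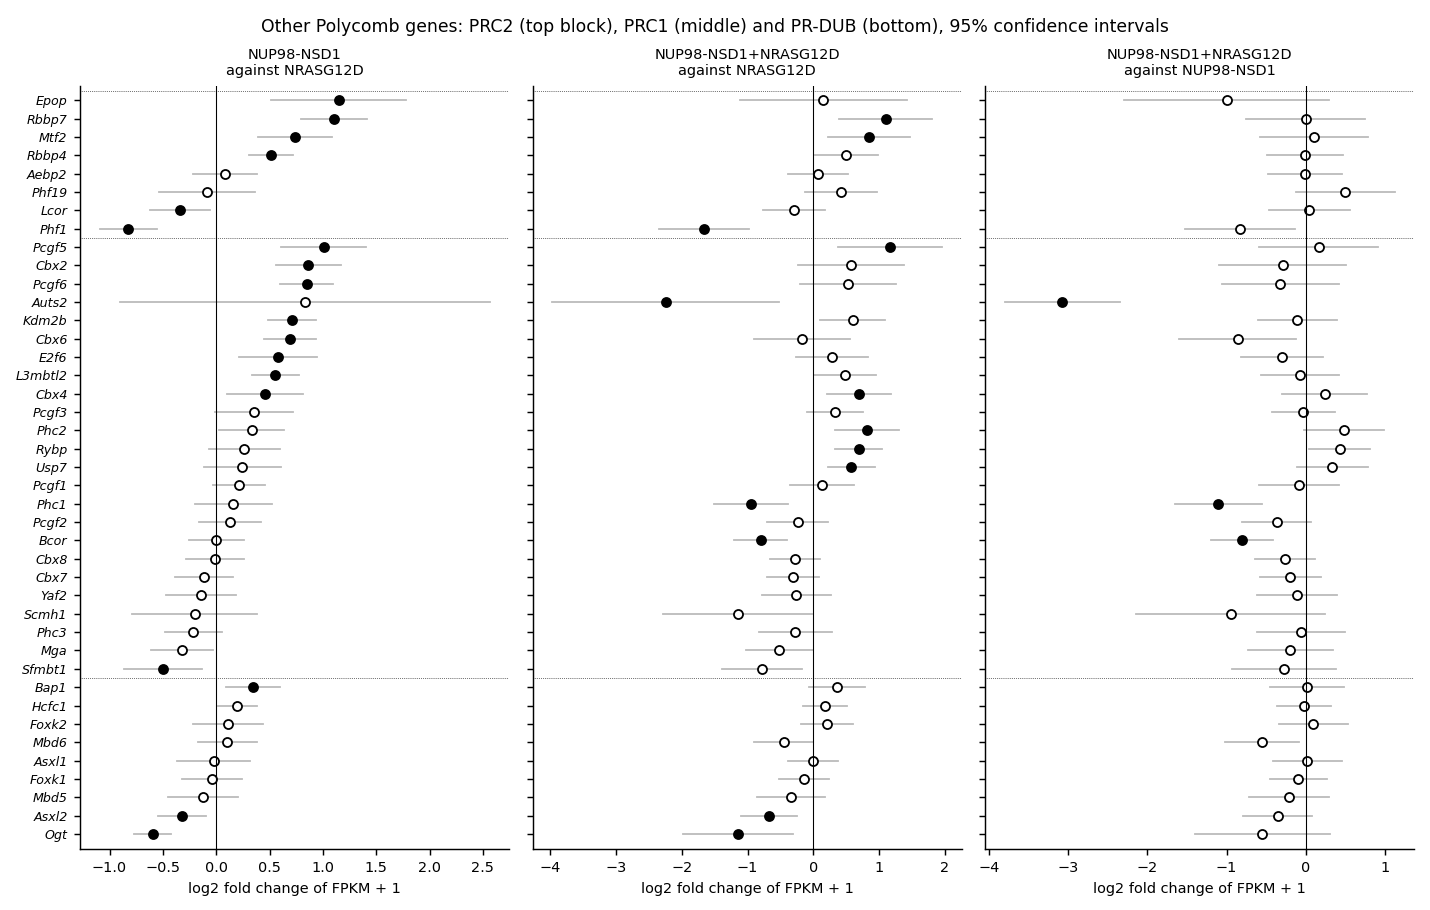
Log2 fold change of FPKM + 1 of the 41 tested other Polycomb genes in the 3 comparisons, with 95% confidence intervals as grey lines, and filled circles where the adjusted p is under 0.05. Mtf2 and Phf1 lie on opposite sides of 0 against NRASG12D, and Auts2, Phc1 and Bcor are the filled circles between the groups with the fusion. Of these, the call of Auts2 is not used.

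Mtf2 and Phf1, related recruiting proteins of PRC2, changed in opposite directions in both groups with the fusion against NRASG12D, Mtf2 upwards and Phf1 downwards, whereas Ezh2 was called higher only in NUP98-NSD1 cells. Mtf2 was at 38.5, 34.6 and 32.1 FPKM in NRASG12D, at 59.7, 71.5 and 48.5 FPKM in NUP98-NSD1 and at 96.8, 48.5 and 54.8 FPKM in NUP98-NSD1+NRASG12D cells. Phf1 was at 12.2, 14.2 and 11.9 FPKM, at 7.51, 6.09 and 6.77 FPKM and at 1.81, 4.95 and 3.93 FPKM in the same order, each group below the one before it. The ratio of Mtf2 to Phf1 was between 2.44 and 3.15 in NRASG12D, between 7.16 and 11.7 in NUP98-NSD1 and between 9.79 and 53.6 in NUP98-NSD1+NRASG12D libraries. This pair was chosen after its values were seen.

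The H3K36 methyltransferases, the class of enzyme that the fusion carries, were compared as 5 genes. Nsd1 was at 11.7, 14.7 and 12.7 FPKM in NRASG12D, at 15.7, 10.8 and 16.2 FPKM in NUP98-NSD1 and at 9.98, 13.8 and 16.2 FPKM in NUP98-NSD1+NRASG12D cells, and the groups overlapped. In NUP98-NSD1 against NRASG12D cells Nsd2 rose (0.53, SE 0.11, adjusted p = 0.00925), but not after median-ratio scaling (0.26, adjusted p = 0.129), where Nsd3, Setd2 and Ash1l were called lower instead. None of the 5 was called in the other comparisons as deposited (limma, at an unadjusted p under 0.05 1 higher and 1 lower against NRASG12D and 0 against NUP98-NSD1), and Nsd3 and Setd2 were called lower in NUP98-NSD1+NRASG12D against NRASG12D cells after median-ratio scaling.

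Of the Hoxa cluster, the best known target of Polycomb repression in blood cells, 6 of 11 genes were tested. All 6 were near 0 in every NRASG12D library and passed the filter on low FPKM through the groups with the fusion, so that they had to be higher there, and 1 of them rose between these groups. Hoxa9 was at 0, 0.0253 and 0.101 FPKM in NRASG12D, at 53.5, 52.2 and 37.4 FPKM in NUP98-NSD1 and at 55.6, 39.0 and 75.8 FPKM in NUP98-NSD1+NRASG12D cells. Hoxa7 and Hoxa10 were likewise below 0.1 FPKM in every NRASG12D library and between 11.3 and 43.0 FPKM in every library with the fusion. The 5 other genes of the cluster did not pass the filter. The 10 genes described here were expressed at 2.44 to 45.1 FPKM in every library, and their ranges over the 9 libraries spanned factors of 1.42 (Kdm6b) to 4.19 (Jarid2).

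The cell cycle inhibitors Cdkn2a, Cdkn2b and Cdkn1c are further known targets of Polycomb repression. Cdkn2a, which encodes p16 and ARF, was at 39.5, 40.1 and 44.8 FPKM in NRASG12D, at 26.2, 31.3 and 25.8 FPKM in NUP98-NSD1 and at 15.4, 27.4 and 6.96 FPKM in NUP98-NSD1+NRASG12D cells. It fell in NUP98-NSD1 (-0.57, SE 0.10, adjusted p = 0.00470) and in NUP98-NSD1+NRASG12D cells (-1.45, SE 0.42, adjusted p = 0.0338) against NRASG12D cells, the latter not without NRASG12D replicate 1, 2 or 3 or NUP98-NSD1+NRASG12D replicate 1 (adjusted p from 0.0675 to 0.105). Cdkn2b fell in NUP98-NSD1 cells (-0.49, adjusted p = 0.0186, but 0.0568 without NRASG12D replicate 3 and 0.0601 without NUP98-NSD1 replicate 1) and was not called in NUP98-NSD1+NRASG12D cells (-0.76, adjusted p = 0.183). In NUP98-NSD1 cells the fall of Cdkn2a was called in 5 of the 6 alternative fits with all libraries kept (highest adjusted p = 0.272). That of Cdkn2b was called in 4 (highest adjusted p = 0.327). Cdkn1c, which encodes p57, was at most at 0.104 FPKM in NRASG12D, between 0.227 and 0.617 FPKM in NUP98-NSD1 and between 1.01 and 2.36 FPKM in NUP98-NSD1+NRASG12D cells. It passed the filter on low FPKM only through the last group, where it is high, so its calls are not used.

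The genes whose levels followed Ezh2, Ezh1 and Bmi1 most closely over the 9 libraries were found by Pearson's correlation of log2(FPKM + 1), given as a description since the libraries of a group share their oncogene and cell types. Nearest to Ezh2 were Arrdc2, Rbm10, Rnf138, Tars2 and Psmg2 (r from 0.985 to 0.993), with the same high value in replicate 1 of NUP98-NSD1+NRASG12D. Nearest to Ezh1 were Gm9517, Rec8, Mob3c, Mitf and Lama5 (r from 0.989 to 0.996). Mitf, a transcription factor needed by mast cells, was at 29.8, 33.1 and 30.6 FPKM in NRASG12D, at 15.1, 14.5 and 17.6 FPKM in NUP98-NSD1 and at 4.13, 12.3 and 6.02 FPKM in NUP98-NSD1+NRASG12D cells, in the same order of groups as Ezh1. Nearest to Bmi1 were Vamp5, Oxr1, Msi2, A930005H10Rik and Gtpbp6 (r from 0.954 to 0.970).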

How the data were processed

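RNA of 9 libraries was sequenced by the authors as paired reads of 50 bp. Per the submitters' processing notes and the methods, reads were aligned with STAR 2.7.2a to GRCm38.p6 and genes quantified with Cufflinks 2.2.1. The authors deposited 1 table of FPKM values per library, with no further scaling between libraries stated, and strand-specific counting is not given in the sources used here. Values of repeated identifiers were summed. Depth was estimated from the steps between low FPKM values, and between 84.4% and 87.3% of them fell within 0.15 of a whole step.

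Groups came from the sample labels. All genes reaching 1 FPKM in 3 or more of the 9 libraries were fitted with limma 3.58.1 in R 4.3.3 (lmFit, eBayes with trend) on log2(FPKM + 1), with Benjamini-Hochberg adjustment and a threshold of 0.05, and the fit was tested on simulated data. For simulated log2 changes of 1, the fit found 71% in NUP98-NSD1 against NRASG12D. It found 32% in each comparison with NUP98-NSD1+NRASG12D, so a difference not called there may have been missed. False calls made up 3.09% of calls in NUP98-NSD1 against NRASG12D. They made up 6.31% and 5.93% in NUP98-NSD1+NRASG12D against NRASG12D and against NUP98-NSD1. Ratios within a library were compared by 2-sided exact permutation tests. The methods name DESeq2 on fragment counts, which needs counts and was not run on FPKM. Coordinates and shared sequence come from GENCODE M21, promoters from RefSeq. Named are the 10 genes, the 3 largest rises and falls among the related genes, Hoxa7, Hoxa9 and Hoxa10, H3K36 methyltransferases, cell cycle inhibitors and the 5 genes most like Ezh2, Ezh1 and Bmi1. Genes and lists were chosen with earlier results of these data known. Python 3.11.15 and scipy 1.17.1 were used. Alternatives were a pseudocount of 0.1, no filter, median-ratio scaling, all 9 libraries in 1 fit, a replicate block, array weights and leaving out each library, and their use for named genes other than the 10 was chosen after seeing the data.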

Additional observations from a re-analysis of the deposited data

How the results depend on the processing

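Of the 10 genes' log2 differences, the following turned in sign, none of them called under either setting. NUP98-NSD1 against NRASG12D gave -0.22 for Bmi1 and -0.091 for Ring1 after median-ratio scaling, and Bmi1 ranged from -0.050 to 0.15 when 1 library was left out. NUP98-NSD1+NRASG12D against NRASG12D gave -0.062 for Ezh2 after median-ratio scaling and -0.22 with limma's array weights, and -0.32 to 0.38 when 1 library was left out. The difference in the log2 ratio of Ezh2 to Ezh1 between the groups with the fusion ranged from -0.57 to 0.46 when 1 library was left out.

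The 6 genes called in NUP98-NSD1 against NRASG12D became 3 with no filter on low FPKM, 1 with all 9 libraries in 1 fit and 3 to 6 when 1 library was left out. The 1 gene called between the groups with the fusion became 0 with a pseudocount of 0.1, with no filter or after median-ratio scaling, 2 with all 9 libraries in 1 fit, 5 with array weights and 0 to 2 when 1 library was left out. The 18, 13 and 3 related genes called became 11, 4 and 0 with no filter, 5 in the first comparison with all 9 libraries in 1 fit and 6 in the last with array weights. Over all genes, the 7036 calls of the first comparison became 3065 with all 9 libraries in 1 fit, the 5173 of the second 2941 to 3159 without an NRASG12D library, and the 1162 of the last 169 with no filter, 2251 with all 9 libraries in 1 fit, 3500 with array weights and 283 to 2509 when 1 library was left out. The cause was not tested.

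The replicate numbers did not pair the libraries (correlations of deviations from -0.18 to 0.16). With a replicate block 5, 3 and 0 of the 10 genes were called, losing Jarid2 (adjusted p = 0.0546), Suz12 (0.0665) and Kdm6a (0.142) in turn, and 6864, 4531 and 801 of all genes.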
